A study of Mus musculus and Homo sapiens with 32 samples.

Results

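Expanded potential stem cells (EPSC) were set against E14 mouse embryonic stem cells by the RNA regions in which m6A peaks were called. The members are the peaks of 1 list for each cell type at 100K nuclei, 12183 in EPSC and 8052 in E14, and the genes whose exons they met. The 2 cell types account for 8 of the 32 libraries of the series. A peak counted as shared where it met a peak of the other list in 1 bp or more on the mm9 mouse genome, whatever the strand. A peak was named when it met an exon block that the authors' genotype tables list for a gene, which gave a position to 11046 genes. Those tables come from a separate experiment of the series on wild-type and Mettl3 knockout stem cells, and they also describe genes below.

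The EPSC group consists of 2 m6A-CT libraries and 2 input libraries, labelled with the cell line E14 and the cell type expanded potential stem cells. The E14 group has the same number of each, from E14 cells labelled as mouse embryonic stem cells. No genotype change or drug is given for either group, and the culture media are not given in the sources used here. Both groups share the anti-m6A antibody, from Synaptic Systems, and the number of nuclei, while EPSC nuclei were released with less Triton X-100 than E14 nuclei. Input nuclei were tagmented without antibody. Whether the 2 libraries of a group are separate cultures is not stated, and each peak list is filed under the first m6A-CT library of its group, so pooling is not stated either. The peak lists give no value per library. No replicate error and no test can therefore be given. The 95% Wilson intervals below cover counting error over peaks or genes alone. They treat peaks as independent, which peaks of one transcript are not, so whether intervals overlap is a description and not a test. The PCR-amplified reads carry no molecular identifiers, so several can stem from one molecule. Lists of E14 at 25K and 5K nuclei and of mouse embryonic fibroblasts (MEF) at 100K nuclei from the same series served as yardsticks.

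N6-methyladenosine (m6A) is a methyl mark that the Mettl3 and Mettl14 writer complex places on nascent transcripts in the nucleus. YTH proteins read it, and marked transcripts are often shorter lived, which in mouse embryonic stem cells includes transcripts of pluripotency regulators. EPSC are stem cells held in media that are reported to widen their potential towards extraembryonic lineages, while E14 is a long-used line of embryonic stem cells. In m6A-CT an antibody carries a transposase to m6A, where it cuts RNA paired with cDNA. A peak is therefore meant to depend on RNA as well as on the mark, but a call alone does not show the mark. Less of a transcript, less methylation of it and fewer cells that hold it cannot be told apart in these lists.

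The EPSC list was longer, and a larger share of its peaks lay inside listed exons. Peaks covered 4724 kb in EPSC and 3105 kb in E14, with a median length of 237 bp in EPSC and 216 bp in E14. Listed exons held 77.0% of EPSC peaks (95% interval 76.2 to 77.7%) and 65.8% of E14 peaks (64.8 to 66.9%). Depth of the libraries is unknown, because the lists hold no read counts. The median -log10 q was 19.1 in EPSC and 18.0 in E14, and the median fold at the summit was 5.20 in EPSC and 6.33 in E14. Both are the authors' values for each peak, and below they describe or rank peaks only within their own list.

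The cell-type labels were checked against marker genes. Of 10 naive pluripotency markers that could be named, 5 had a peak in EPSC (Sox2, Klf4, Esrrb, Zfp42 and Tdgf1) and 7 in E14, which added Nanog and Tfcp2l1. None of the 5 nameable fibroblast markers, the 5 of trophectoderm and the 4 of primitive endoderm had a peak in EPSC or in E14. In MEF 3 of those fibroblast markers carried 22 peaks. MEF also had 5 peaks on 3 of the primitive endoderm markers, 3 on 1 trophectoderm marker and 3 on 1 naive pluripotency marker. A peak on a marker gene is thus not particular to the cell type it marks. Of 8 markers of endothelium, blood and epithelium, Pecam1 and Grhl2 had peaks in EPSC and Pecam1 in E14. Absence from a list does not show absence of a transcript: Pou5f1, the core pluripotency factor Oct4, had no peak named to it in any of the 5 lists. The tables list 250 bp of Pou5f1 exon, within chr17:35646365-35647081, so a peak elsewhere on its transcript would stay unnamed.

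Of the EPSC peaks, 5400 were found in E14, or 44.3% (43.4 to 45.2%), and of the E14 peaks, 5438 were found in EPSC, or 67.5% (66.5 to 68.6%). That left 6783 peaks in EPSC only and 2614 in E14 only. After merging, both lists together covered 14624 regions, of which 5227 were shared. At equal numbers, the 8052 EPSC peaks of lowest q were set against the 8052 E14 peaks. The shares were then 55.7% for EPSC (54.6 to 56.8%) and 56.7% for E14 (55.6 to 57.8%). Lists of equal length whose peaks mostly meet in pairs give nearly equal shares by construction. The closeness of these shares therefore does not describe the cell types. The last EPSC peak kept in that comparison had a -log10 q of 14.97, and the first left out had 14.96.

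Shared peaks ranked high in both lists. Among the top 500 peaks by -log10 q, 498 EPSC peaks (99.6%, 98.6 to 99.9%) had a counterpart somewhere in the E14 list, and 490 E14 peaks (98.0%, 96.4 to 98.9%) had one in the EPSC list. Most of these top peaks lay outside listed exons. Listed exons held 128 of the top 500 EPSC peaks and 83 of the top 500 E14 peaks, beside 77.0% and 65.8% of all peaks. Of the top 500 EPSC peaks, 342 began and ended on the same base as an E14 peak. With each list split into 4 by -log10 q, the share in the lowest part was 20.6% for EPSC (19.2 to 22.0%) and 47.3% for E14 (45.1 to 49.5%). Peaks of one list alone ranked lower. The median -log10 q was 15.3 for EPSC-only peaks beside 29.1 for shared peaks within the EPSC list, and 13.9 for E14-only peaks beside 22.3 for shared peaks within the E14 list.

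**Figure D1:**
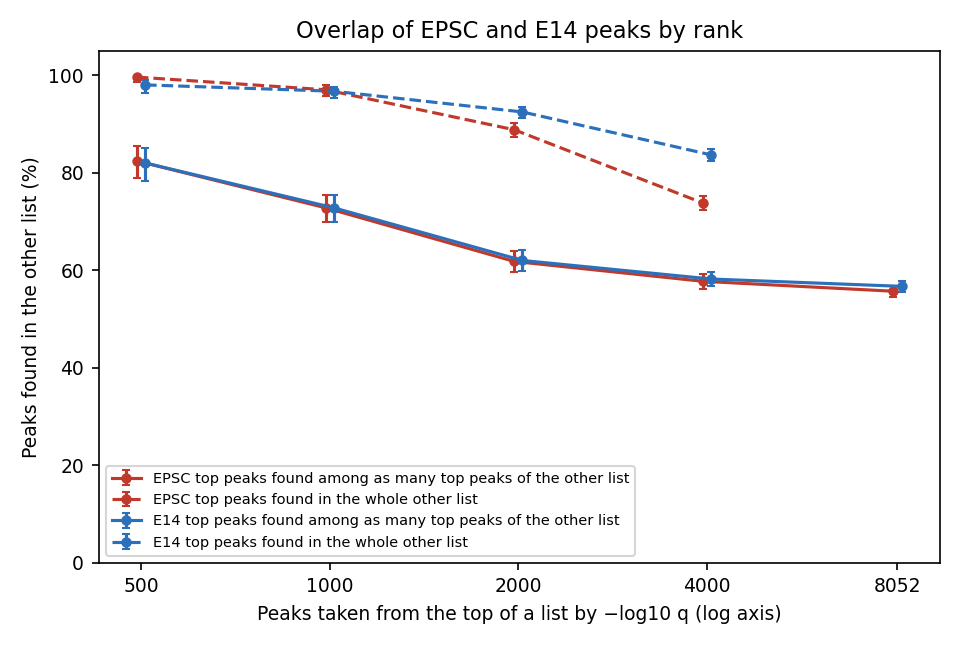
The share of top peaks found in the other list (vertical axis, percent) is plotted against the number of peaks taken from the top of each list by -log10 q (horizontal log axis), with EPSC in red, E14 in blue and bars for 95% Wilson intervals. Against the whole other list (dashed) the shares of the top 500 are 99.6% for EPSC and 98.0% for E14; against as many top peaks (solid) they are 82.4% and 82.0% at 500 peaks and 55.7% and 56.7% at 8052.

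Summits of shared peaks mostly lay close together. Over 4905 pairs in which 1 EPSC peak met 1 E14 peak, the median distance between summits was 10 bp, and 71.3% of summits lay within 50 bp of each other. The EPSC peak was the longer one in 49.5% of these pairs, the E14 peak in 26.5%, and 24.0% were of the same length. The median length over the pairs was 259 bp in EPSC and 227 bp in E14. Across the pairs the Spearman rho was 0.607 for -log10 q and 0.649 for fold. One long transcript gives many pairs, so they are not independent, and the rho is a description.

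A set of peaks with fixed ends contributed to this overlap. In 1160 overlapping pairs the EPSC and E14 peaks began and ended on the same base, and 362 of these were 100 bp long and 336 were 180 to 183 bp long. Listed exons held 15.9% of them, and 342 of them were among the top 500 EPSC peaks. Without them the share of EPSC peaks found in E14 was 38.5%, and that of E14 peaks found in EPSC was 62.1%. Such pairs are shared by definition, so leaving them out could only lower both shares. Of EPSC peaks, 38.9% of those in listed exons (37.9 to 39.9%) and 62.5% of those elsewhere (60.7 to 64.3%) were found in E14. Of E14 peaks, 70.1% of those in listed exons (68.8 to 71.3%) and 62.7% of those elsewhere (60.9 to 64.5%) were found in EPSC.

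The difference between the cell types was then set beside differences within E14. With the top 3923 peaks of every list, which is the length of the shortest, 57.8% of EPSC peaks (56.3 to 59.3%) were found in E14 and 58.3% of E14 peaks (56.8 to 59.9%) in EPSC. Values on either side of these came from E14 at 100K and 25K nuclei, which shared 55.4% (53.8 to 56.9%) of the 100K peaks and 60.5% (59.0 to 62.0%) of the 25K peaks. Against E14 at 5K, 41.1% of the E14 peaks at 100K were found. Which of the 100K lists the smaller E14 lists met more often depended on the peaks compared. Of the 25K peaks, 48.6% (47.0 to 50.1%) were found in the top 3923 of EPSC, beside 60.5% in those of E14. The whole EPSC list held 70.5% (69.1 to 71.9%) of the 25K peaks, and the whole E14 list held 75.6% (74.3 to 76.9%). Within listed exons the order turned, with 79.8% (77.9 to 81.5%) of the 25K peaks found in EPSC and 74.2% (72.1 to 76.1%) in E14, while the top 8052 peaks of EPSC held 71.4% of them (69.4 to 73.4%). Of all 5K peaks, the whole EPSC list held 53.1% (51.7 to 54.5%), its top 8052 held 45.2% (43.8 to 46.7%), and the E14 list held 51.0% (49.6 to 52.5%). For the 5K peaks in listed exons the share was 46.6% (44.7 to 48.6%) in the top 8052 of EPSC, beside 43.7% (41.8 to 45.7%) in E14, with intervals that overlap. At this cut MEF stood further away, with 27.6% of EPSC peaks (26.3 to 29.1%) and 21.9% of E14 peaks (20.6 to 23.2%) found in its top 3923. The cut keeps a smaller part of the MEF list, of 38205 peaks, than of the others. The whole MEF list held 62.0% of all EPSC peaks and 55.9% of all E14 peaks. The number of nuclei differs between the E14 lists, so the overlap of 2 lists made alike from one cell type is not known.

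**Figure D2:**
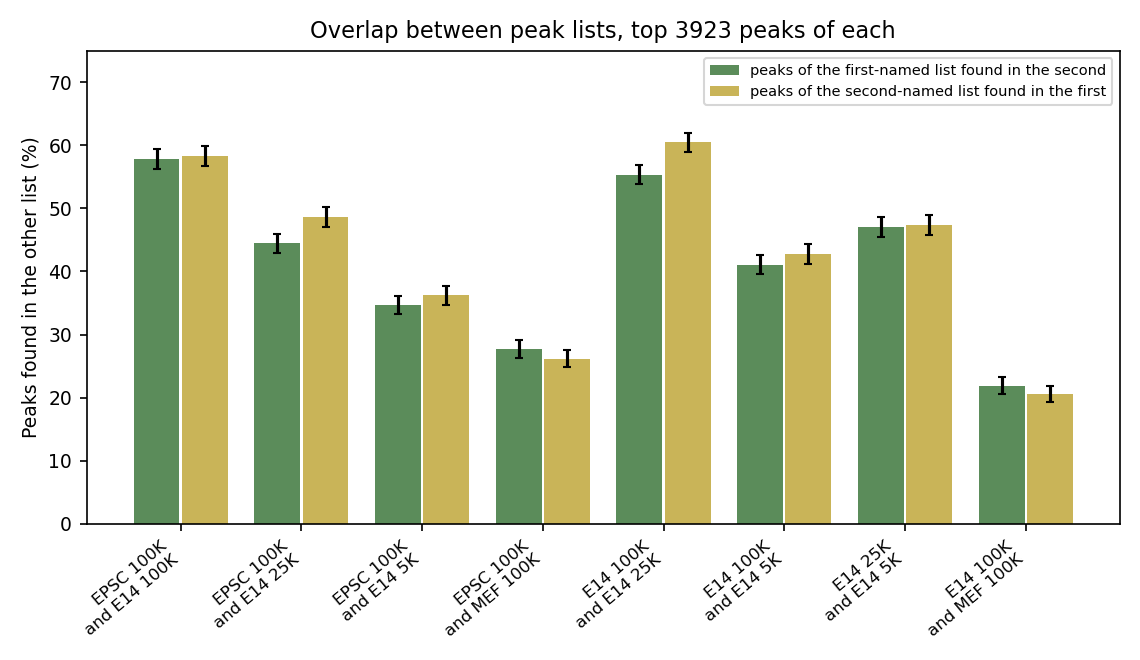
Bars show the share of peaks of one list found in another (vertical axis, percent) for 8 pairs of lists, each cut to its 3923 peaks of lowest q, with 95% Wilson intervals; green bars are the first-named list and yellow bars the second. EPSC and E14 at 100K nuclei reach 57.8% and 58.3%, beside 55.4% and 60.5% for E14 at 100K and 25K nuclei and 27.6% and 26.2% for EPSC and MEF.

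Peaks called in only one cell type were looked up in the lists that the comparison did not use. The E14 list at 25K nuclei held 4.67% of EPSC-only peaks (4.20 to 5.20%) and 19.1% of E14-only peaks (17.6 to 20.6%), while it held 42.1% of the shared peaks as called in EPSC. The E14 list at 5K nuclei held 8.06% of EPSC-only peaks (7.44 to 8.74%) and 17.7% of E14-only peaks (16.3 to 19.2%). The shares of E14-only peaks were higher than those of EPSC-only peaks in both E14 lists, with intervals that do not overlap, and lower than those of shared peaks. EPSC-only peaks were chosen by absence from an E14 list and E14-only peaks by presence in it. The order of EPSC-only and E14-only peaks is therefore partly set by the selection. How far it goes beyond the selection was not tested. The MEF list, with 38205 peaks, held 61.4% of EPSC-only peaks (60.3 to 62.6%) and 40.4% of E14-only peaks (38.5 to 42.3%). Of shared peaks as called in EPSC, MEF held 62.7% (61.4 to 64.0%). Listed exons held 84.5% of EPSC-only peaks and 60.7% of E14-only peaks.

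**Figure D3:**
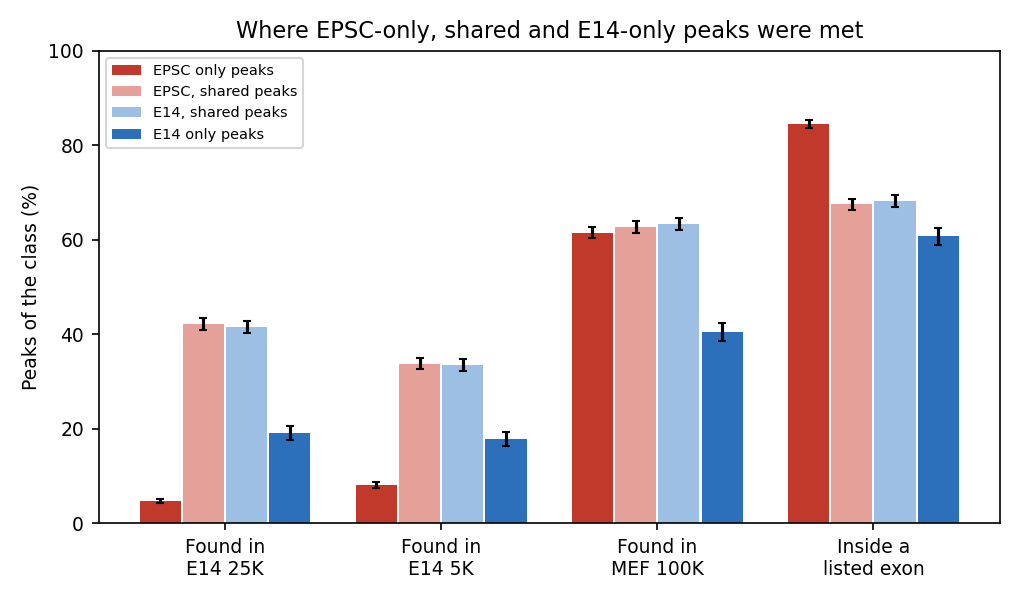
For EPSC-only, shared (as called in EPSC and as called in E14) and E14-only peaks, bars give the percentage met in the E14 list at 25K nuclei, the E14 list at 5K nuclei and the MEF list, and the percentage inside a listed exon, with 95% Wilson intervals. EPSC-only peaks are met least in the E14 lists (4.67% and 8.06%) and lie most often in listed exons (84.5%), and E14-only peaks are met least in MEF (40.4%). The order of EPSC-only and E14-only peaks in the E14 lists is partly set by how they were selected.

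By gene, 3021 genes had a peak in EPSC and 2093 in E14. Of the nameable genes, 1219 (11.0%) had a peak in EPSC only, 291 (2.63%) in E14 only and 1802 (16.3%) in both cell types. With equal numbers of peaks 631 (5.71%) had one in EPSC only, 550 (4.98%) in E14 only and 1543 (14.0%) in both. The ratio of EPSC-only to E14-only genes was 4.19-fold in the whole lists and 1.15-fold at equal numbers. Most of the genes called in one list rested on 1 peak, 807 of the 1219 in EPSC and 241 of the 291 in E14. Of the 291 E14-only genes, 112 had a peak in E14 at 25K or 5K nuclei as well, or 38.5% (33.1 to 44.2%). The same lists held 27.5% (25.0 to 30.1%) of the EPSC-only genes, 65.3% (63.1 to 67.5%) of the genes with a peak in both and 18.1% of all nameable genes. At equal numbers they held 34.5% (30.9 to 38.3%) of the EPSC-only genes and 42.0% (37.9 to 46.2%) of the E14-only genes, with intervals that overlap. As with the peaks, these gene classes were chosen by absence from or presence in an E14 list, which partly sets their order. Removing EPSC-only genes that appeared in any E14 list left 413 of 631 at equal numbers, and 299 of these had a peak in MEF. At equal numbers MEF held 75.6% of all 631 EPSC-only genes, 68.5% of the E14-only genes and 83.9% of the genes in both. It held 39.8% of all nameable genes, so a MEF peak is not particular to the 413.

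Genes with a peak in EPSC and none in E14 at 100K nuclei were ranked by their best -log10 q. The first 10 included Eef1a1, the translation elongation factor, Srebf2, the master regulator of cholesterol synthesis genes, Ptprf, a receptor tyrosine phosphatase, and Slc2a1, the glucose transporter Glut1. Dhrs13os, Tm9sf2, Tmem132a, the kinase gene Oxsr1 and the AP-1 member Jund were also among them. Eef1a1 had 1 peak in EPSC, at chr9:78326639-78326928 with a 2.37-fold enrichment and a -log10 q of 236, and none in any E14 list or in MEF. Eef1a1 has near-identical processed copies elsewhere in the genome, so the place of this peak is uncertain. Srebf2 had 5 peaks in EPSC and none in the 3 E14 lists, and the strongest lay at chr15:82007652-82008072 (5.45-fold). Slc2a1 had 2 peaks in EPSC, none in the E14 lists and 8 in MEF. Of these 9 genes, Ptprf, Tmem132a, Oxsr1 and Jund had peaks in E14 at 5K nuclei, and the other 5 had none in any E14 list. Ptprf had 12 peaks in EPSC, 0 in E14 at 100K and 25K, 3 at 5K and 0 in MEF.

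The largest surplus belonged to Lrp2, which encodes megalin, an endocytic receptor of absorptive epithelia that visceral endoderm also uses. Lrp2 had 50 peaks in EPSC and 3 in E14 at 100K nuclei, none in the 25K or 5K lists of E14 and 30 in MEF. The EPSC peaks covered 14195 bp within chr2:69262392-69424082, and the E14 peaks covered 658 bp. In EPSC the median peak had a 6.26-fold enrichment and 34 of the 50 peaks had a -log10 q of at least 20. All 3 E14 peaks met an EPSC peak, and 27 of the EPSC peaks met a MEF peak. At equal numbers Lrp2 kept 41 peaks in EPSC, against 3 in E14. The authors' deposited table for C57BL/6 stem cells lists 1 Lrp2 region, with a log2 fold change of -1.59 in Mettl3 knockout over wild type.

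Other genes with large surpluses in EPSC differed in how far E14 shared their peaks. Atp2a2, the calcium pump of the endoplasmic reticulum, had 12 peaks in EPSC, 2 in E14 at 100K, none in the smaller E14 lists and 17 in MEF. Chd4, the ATPase of the NuRD complex, had 20 peaks in EPSC and 7 in E14, and all 7 met an EPSC peak. Zfp462, a zinc finger gene, had 13 peaks in EPSC, none in the E14 lists and 15 in MEF, and each of its 13 EPSC peaks met a MEF peak. Unlike these, Ptprf had no MEF peak.

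**Figure D4:**
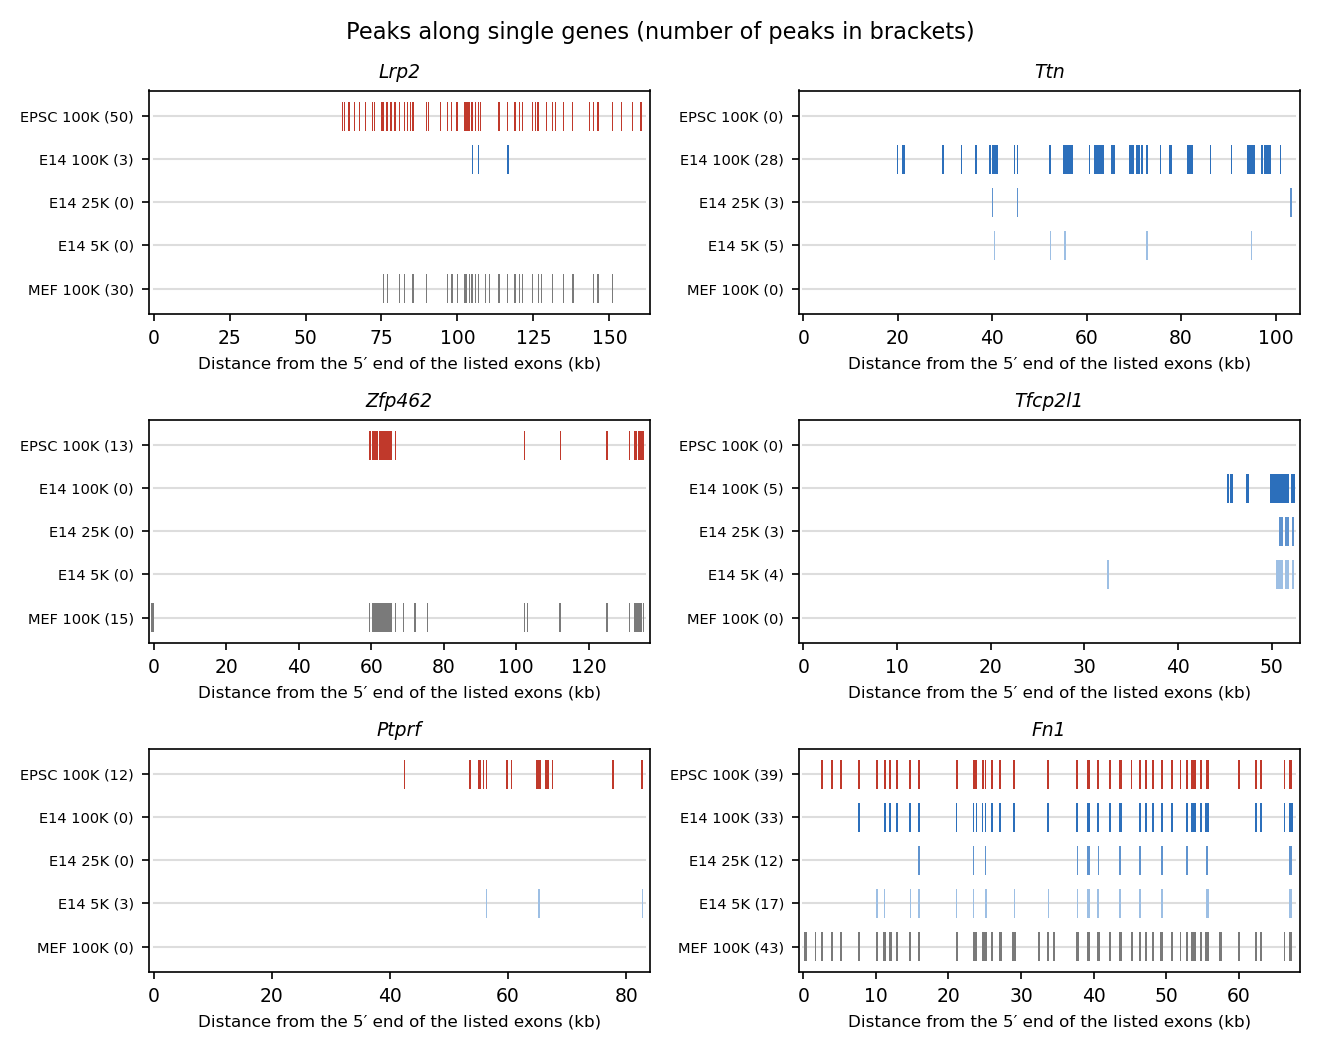
Peaks (blocks) along 6 genes are drawn against distance from the 5′ end of the listed exons (horizontal axis, kb) for EPSC, E14 at 100K, 25K and 5K nuclei and MEF, with the number of peaks in brackets. Lrp2, Zfp462 and Ptprf carry 50, 13 and 12 peaks in EPSC and 3, 0 and 0 in E14 at 100K; Ttn and Tfcp2l1 carry 0 in EPSC and 28 and 5 in E14; Fn1 carries 39 and 33 at nearly the same places.

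The largest surplus in E14 belonged to Ttn. It encodes titin, the giant spring protein of muscle sarcomeres. Ttn had no peak in EPSC, 28 in E14 at 100K, 3 at 25K, 5 at 5K and none in MEF. The 28 peaks covered 18323 bp within chr2:76542041-76646134, with a median enrichment of 7.62-fold, and 7 of them had a -log10 q of at least 20. Peaks of the smaller E14 lists met 6 of the 28. In C57BL/6 stem cells the authors' deposited tables list 54 Ttn peaks in wild type and 110 in Mettl3 knockout, and log2 fold changes of 29 Ttn regions from -4.48 to -1.45. The median of all 33391 regions past an FDR of 0.05 in the authors' deposited table was -1.34.

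The next 5 surpluses in E14 were defined at equal numbers, and in the whole lists they shrank for Ly75, Lama1 and Rif1 and changed sides for Dst and Usp34. Ly75, an endocytic receptor of dendritic and epithelial cells, had 4 peaks in EPSC at equal numbers and 7 in the whole list, against 16 in E14. Lama1, a laminin chain of the first basement membranes, had 3 in EPSC at equal numbers and 11 in the whole list, against 12 in E14. Rif1, a regulator of replication timing, had 13 and 18 in EPSC by the same counts, against 21 in E14. Dst, a giant cytoskeletal linker, had 50 in EPSC at equal numbers and 64 in the whole list, against 63 in E14, and Usp34, a ubiquitin protease, had 19 and 32 in EPSC, against 28 in E14. Fn1, the fibronectin gene, is an example of peaks at the same places, with 39 peaks in EPSC and 33 in E14, of which all 33 met an EPSC peak.

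Most naive pluripotency genes with a peak had one in both lists. Of 28 nameable members, 2 had a peak in EPSC only (Gbx2 and Mybl2), 2 in E14 only (Nanog and Tfcp2l1) and 15 in both. At equal numbers Nr5a2 joined the E14-only genes. The shares were 7.14% in EPSC only and 7.14% in E14 only, beside 11.0% and 2.63% of all nameable genes. At equal numbers they were 7.14% and 10.7%, beside 5.71% and 4.98%, and rest on 2 or 3 genes each. Tfcp2l1, a transcription factor of the naive network, had no peak in EPSC, 5 in E14 at 100K, 3 at 25K, 4 at 5K and none in MEF. They covered 3278 bp in E14 at 100K, and the strongest had a -log10 q of 72.6. Nanog, the homeobox factor that stabilises self-renewal, had no peak in EPSC, 1 in E14 at 100K (3.00-fold), 1 at 25K, 2 at 5K and none in MEF. Both genes thus had a peak in 3 of 3 E14 lists and not in EPSC, and the longer EPSC list did not supply a peak of theirs. In C57BL/6 wild-type stem cells the authors' deposited tables give Tfcp2l1 1 peak and Nanog 2. For Mettl3 knockout they give each gene 1 peak, at 22.8-fold for Tfcp2l1 and 8.57-fold for Nanog. The largest wild-type folds were 12 for Tfcp2l1 and 8.43 for Nanog. The log2 fold changes of 7 Tfcp2l1 regions in Mettl3 knockout ran from 0.35 to 0.65 in the authors' deposited table, where 89.0% of the regions past the FDR were negative. Other factors of the network had peaks in both. Sox2 had 2 peaks in EPSC and 1 in E14, Klf4 had 2 in EPSC and 3 in E14, and Esrrb, an orphan nuclear receptor, had 2 in each. Zfp57, which protects imprints, had 2 peaks in each.

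Few genes had such a pattern. Of the 291 genes with a peak in E14 at 100K and none in EPSC, 35 had peaks in both smaller E14 lists, and 14 of those had none in MEF. The first by -log10 q were Plagl1, an imprinted zinc finger gene, with 2 peaks in each of the 3 E14 lists and 1 in MEF, and Arl4c, a small GTPase, with 1 peak in each of them and 4 in MEF. Plagl1 peaks covered 3445 bp in E14 at 100K, at up to 13.9-fold. Irf2bpl, a transcriptional regulator, had 1 peak in E14 at 100K and at 25K and 2 at 5K. Tcf7l1, the repressor that limits Wnt target genes in embryonic stem cells, had 1 peak in each E14 list and 2 in MEF. Of the other E14-only genes with the highest -log10 q, some were in fewer lists. Rpph1, the RNA of ribonuclease P, and Tlx3, a homeobox gene, each had 1 peak in E14 at 100K and none in the other 4 lists. Plpp1, Naa80 and Tmem181b-ps each returned in 1 of the 2 smaller lists, and the phosphate transporter Slc20a2 in both.

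Gene lists are read here beside the shares of all nameable genes, 11.0% in EPSC only and 2.63% in E14 only in the whole lists, and 5.71% and 4.98% at equal numbers. Across 24 gene lists, more members had a peak in EPSC only than in E14 only in 21, against 1 the other way; at equal numbers these counts were 11 and 5. All nameable genes lean the same way, so this count is not particular to the lists. A list whose members have peaks more often can have larger shares in every class. An EPSC-only share above that of all nameable genes is therefore not by itself a lean towards EPSC. For Wnt signalling, 5 of 47 nameable members had a peak in EPSC only, 1 in E14 only and 18 in both, and at equal numbers 4, 2 and 17. The whole-list shares of 10.6% and 2.13% lay near those of all nameable genes. Ctnnb1, the beta-catenin gene, had 3 peaks in EPSC, none in the E14 lists and 4 in MEF. Tle3 and Tle4, corepressors of Wnt targets, had 1 peak each in EPSC and none in the E14 lists. Wnt7b and Axin2, a feedback target of the pathway, had peaks in both cell types, and Axin2 had 3 in EPSC and 2 in E14.

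The Hippo list had the largest EPSC-only share among the signalling lists. Of 32 nameable members 9 had a peak in EPSC only, 2 in E14 only and 9 in both. That is 28.1% in EPSC only beside 11.0% of all nameable genes. The E14-only share was 6.25% beside 2.63%, and the share in both was 28.1% beside 16.3%, so every class was raised. At equal numbers the counts were 5, 2 and 9, or 15.6% in EPSC only beside 5.71%. The E14-only share was then 6.25% beside 4.98%, and the share in both 28.1% beside 14.0%. Prkci, an atypical protein kinase C of the polarity complex, had 2 peaks in EPSC, 1 in E14 at 5K and 13 in MEF. Taok2, an upstream kinase, had 1 peak in EPSC, 2 in E14 at 5K and 6 in MEF. Amotl1 and Frmd6, junctional regulators, had 1 and 2 peaks in EPSC and none in the E14 lists. All of these genes had peaks in MEF. Fat1, a giant cadherin upstream of the pathway, had 25 peaks in EPSC and 25 in E14.

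For FGF and ERK signalling, 4 of 37 members had a peak in EPSC only, 0 in E14 only and 14 in both, and at equal numbers 2, 3 and 11. The EPSC-only shares, 10.8% and at equal numbers 5.41%, lay near the 11.0% and 5.71% of all nameable genes. Spred2, an inhibitor of the pathway, had 1 EPSC peak and none in the E14 lists, and Fgf4, the ligand of the pathway in stem cells, had 1 peak in each cell type. For LIF and JAK-STAT signalling, 5 of 23 had a peak in EPSC only, 1 in E14 only and 3 in both, and at equal numbers 1, 1 and 3, or 21.7% in EPSC only and at equal numbers 4.35%. Stat3, the effector of LIF, had 1 peak in EPSC (7.70-fold) and none in E14 at 100K, but 1 in E14 at 25K. Lifr, the LIF receptor gene, had 10 peaks in EPSC and 5 in E14. For TGF-beta, Nodal and BMP signalling the counts were 5, 0 and 11 of 33, and at equal numbers 3, 1 and 10, or 15.2% in EPSC only and at equal numbers 9.09%. Gdf3, a Nodal-related ligand, had 1 peak in EPSC and none in the 4 other lists, and Bmpr1a, a BMP receptor, had 4 in EPSC and 1 in each of the smaller E14 lists.

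Cell junction genes had EPSC-only peaks in 8 of 36 members, E14-only peaks in 1 (Ctnnd1, the p120 catenin gene) and peaks in both in 19, and at equal numbers 5, 2 and 18. The EPSC-only share was 22.2% beside 11.0% of all nameable genes, and 13.9% beside 5.71% at equal numbers. The share in both was 52.8% beside 16.3%, and 50.0% beside 14.0% at equal numbers. Members of this list thus had a peak of any class more often, and the EPSC-only share alone shows no lean towards EPSC. Cldn4, a tight junction claudin, had 2 peaks in EPSC and none in the other 4 lists. Itgb5, an integrin chain, had 4 peaks in EPSC, none in the E14 lists and 8 in MEF. Grhl2, an epithelial transcription factor from another list, had 2 peaks in EPSC and none in the other lists. Among genes in both, Celsr1, a planar polarity cadherin, had 11 peaks in EPSC and 10 in E14, and Itga6 had 9 in EPSC and 8 in E14.

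**Figure D5:**
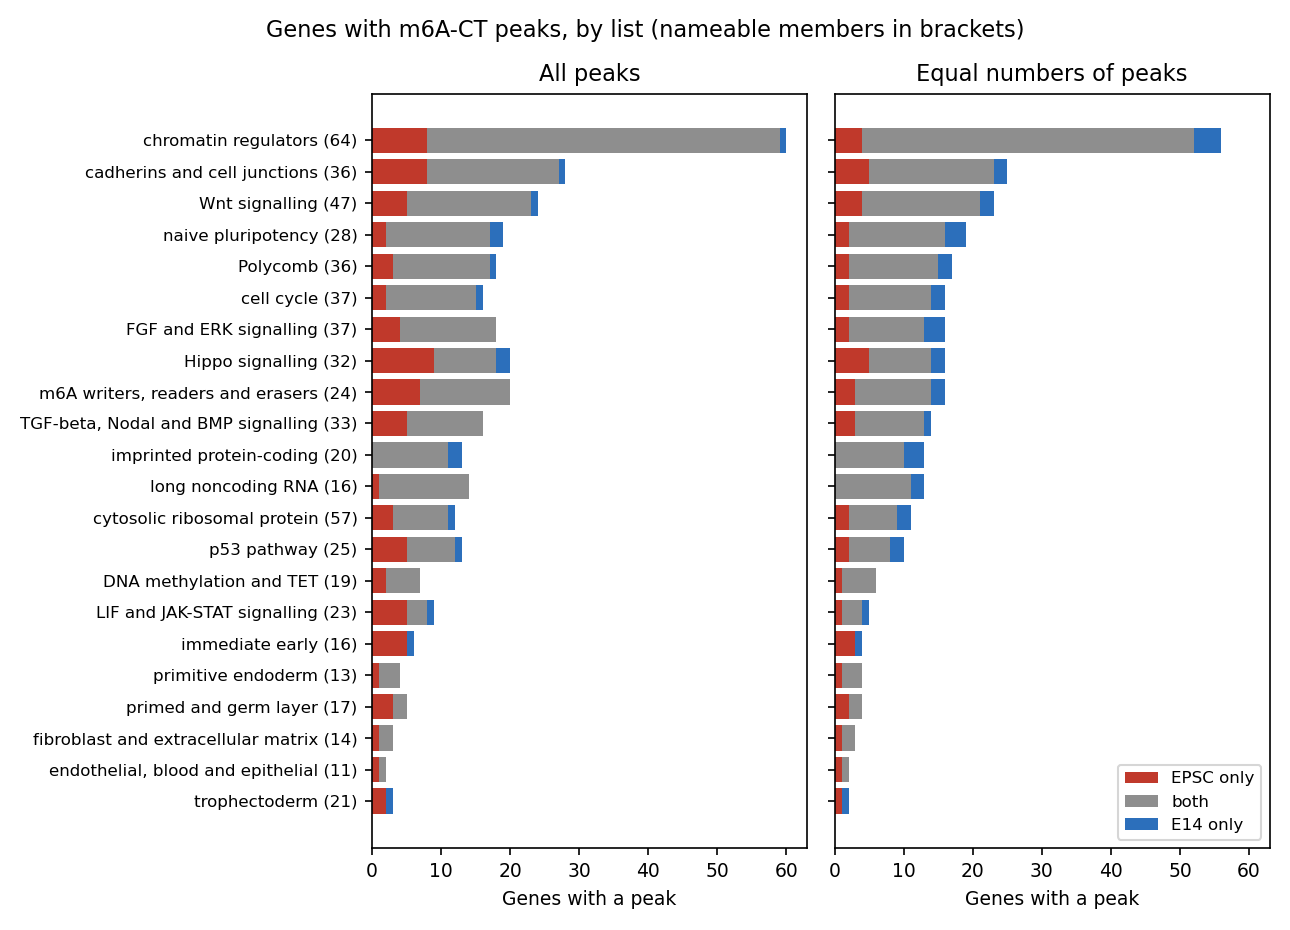
For 22 gene lists (rows, nameable members in brackets) bars count the genes with a peak in EPSC only (red), in both (grey) and in E14 only (blue), on the left for all peaks and on the right with equal numbers of peaks. Red exceeds blue in most lists on the left, as for Hippo signalling with 9 and 2 genes, and less so on the right, with 5 and 2.

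Genes of the m6A machinery had a peak in most cases. Of 24 nameable members 7 had a peak in EPSC only, 0 in E14 only and 13 in both, and at equal numbers 3, 2 and 11. In the whole lists that is 29.2% in EPSC only and 54.2% in both, beside 11.0% and 16.3% of all nameable genes. At equal numbers it is 12.5% in EPSC only, 8.33% in E14 only and 45.8% in both, beside 5.71%, 4.98% and 14.0%. Rbm15b, an adaptor of the writer complex, had 2 peaks in EPSC, none in the E14 lists and 1 in MEF. Ythdf1, a cytoplasmic reader, had 2 in EPSC, 1 in E14 at 5K and 3 in MEF, and Alkbh5, a demethylase, had 2 in EPSC and 1 in E14 at 5K. Wtap, a writer subunit, had 2 peaks in EPSC and 3 in E14. The 2 E14-only members at equal numbers, Mettl16 and Igf2bp3, had EPSC peaks further down that list.

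Chromatin genes mostly had peaks in both cell types. Of 64 nameable regulators 8 had a peak in EPSC only, 1 in E14 only (Ehmt2) and 51 in both, and at equal numbers 4, 4 and 48. In both cell types that is 79.7% beside 16.3% of all nameable genes, while the EPSC-only share of 12.5% lay near the overall 11.0%. Smarca5, an ISWI remodeller, had 9 peaks in EPSC and 7 in E14, and Kmt2b, a histone methyltransferase, had 9 in EPSC and 4 in E14. Brd1 and Ehmt1, with EPSC-only peaks at 100K nuclei, had peaks in at least 1 smaller E14 list. For Polycomb 3 of 36 were EPSC-only, 1 E14-only and 14 in both, and at equal numbers 2, 2 and 13. For DNA methylation and TET genes 2 of 19 were EPSC-only, none E14-only and 5 in both, and at equal numbers 1, 0 and 5. The EPSC-only shares of these lists were 8.33% and 10.5%, beside the overall 11.0%. At equal numbers they were 5.56% and 5.26%, beside 5.71%. Dnmt1, the maintenance methyltransferase, had 4 peaks in EPSC and none in E14 at 100K, but 1 at 25K, 3 at 5K and 27 in MEF.

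Immediate early genes, which growth factors and stress switch on, had peaks in EPSC only for 5 of 16 members and in E14 only for 1, with none in both, and at equal numbers the counts were 3, 1 and 0. The EPSC-only share was 31.2% beside 11.0% of all nameable genes, and 18.8% beside 5.71% at equal numbers. Jund had 1 peak in EPSC, none in E14 at 100K and 25K, 1 at 5K and 2 in MEF. Egr1, a zinc finger factor induced by ERK, had 1 peak in EPSC (6.16-fold, -log10 q 51.9), none in the E14 lists and 3 in MEF. Klf6, the E14-only member, had 1 peak in E14 at 100K and at 25K and 4 in MEF. The list is small, and its EPSC-only members are single peaks.

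Lineage lists were sparse in both cell types. Of 17 nameable primed and germ layer genes, 3 had a peak in EPSC only (Sox4, Zic2 and Eomes), none in E14 only and 2 in both. The EPSC-only share was 17.6% beside 11.0% of all nameable genes. At equal numbers the counts were 2, 0 and 2, or 11.8% in EPSC only beside 5.71%. Sox4, a progenitor transcription factor, had 3 peaks in EPSC, none in the E14 lists and 3 in MEF, while Eomes had 2 peaks in E14 at 5K. Of 21 trophectoderm genes 2 had a peak in EPSC only (Eomes and Cldn4) and 1 in E14 only, and at equal numbers 1 and 1. The EPSC-only shares were 9.52% beside 11.0%, and 4.76% beside 5.71% at equal numbers. Of 13 primitive endoderm genes 1 was EPSC-only, Lamb1 with 5 peaks in EPSC, none in the E14 lists and 27 in MEF, and 3 were in both, Lrp2, Lamc1 and Lama1. These gene counts were the same at equal numbers, with 7.69% in EPSC only. The peaks of that list numbered 86 in EPSC and 33 in E14, and 50 of the 86 are those of Lrp2; its markers Gata6, Gata4, Pdgfra and Dab2 had none in either cell type. No peak fell on the 3 nameable genes of the two-cell stage. Of 14 fibroblast and matrix genes, Zeb1 was the EPSC-only member, with 2 peaks in EPSC and 9 in MEF, and Fn1 and Hmga2 had peaks in both. This was also so at equal numbers, and the EPSC-only share was 7.14%. Whether other cells in the EPSC culture contributed to any of these peaks was not tested.

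The remaining lists differed in their balance. Imprinted protein-coding genes had no EPSC-only member among 20, 2 in E14 only (Plagl1 and Grb10) and 11 in both, among them Peg10 and Nnat. At equal numbers the counts were 0, 3 and 10. The E14-only shares were 10% and, at equal numbers, 15%, beside 2.63% and 4.98% of all nameable genes. Long noncoding RNAs had 1 of 16 in EPSC only (Snhg12), 0 in E14 only and 13 in both, with Rian at 7 peaks in EPSC and 9 in E14. That is 6.25% in EPSC only beside 11.0% of all nameable genes. The balance turned at equal numbers, with 0 in EPSC only, 2 in E14 only (Neat1 and Kcnq1ot1) and 11 in both. The E14-only share was then 12.5% beside 4.98%. For the p53 pathway 5 of 25 were in EPSC only, 1 in E14 only (Sesn2) and 7 in both, and Mdm2, the ubiquitin ligase of p53, had 1 peak in EPSC, none in E14 at 100K, 2 at 25K and 1 at 5K. The EPSC-only share of the p53 list was 20.0% beside 11.0% of all nameable genes, and at equal numbers 2 members were in EPSC only and 2 in E14 only. For the cell cycle the counts were 2, 1 and 13 of 37, and at equal numbers 2, 2 and 12. The EPSC-only share was 5.41% both times, beside 11.0% and 5.71% of all nameable genes. Of 57 genes for cytosolic ribosomal proteins, which have many near-identical pseudogenes, 3 were in EPSC only, 1 in E14 only and 8 in both. At equal numbers the counts were 2, 2 and 7. The EPSC-only shares of 5.26% and, at equal numbers, 3.51% stood beside 11.0% and 5.71% of all nameable genes. Of 313 Zfp zinc finger genes 42 were in EPSC only, 12 in E14 only and 88 in both, or 13.4% and 3.83% in one cell type beside 11.0% and 2.63% of all nameable genes. At equal numbers 16 Zfp genes were in EPSC only and 25 in E14 only, or 5.11% and 7.99% beside 5.71% and 4.98%.

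The gene classes were also described by a separate experiment of the series on C57BL/6 stem cells, made with another antibody. In wild-type cells the authors' deposited table had a peak in 90.4% of the EPSC-only genes (88.6 to 91.9%), 88.3% of the E14-only genes (84.1 to 91.5%), 94.5% of the genes in both and 52.8% of all nameable genes. In the authors' deposited table the median log2 fold change in Mettl3 knockout over wild type, at each gene's region of most reads, was -1.17 for the EPSC-only genes, -1.21 for the E14-only genes, -1.16 for genes in both and -1.33 for all nameable genes with a region past an FDR of 0.05. The wild-type input in that table, summed over a gene's regions and divided by their length, had a median of 3.23 RPM per kb for EPSC-only genes, 2.50 for E14-only genes, 3.94 for genes in both and 1.93 for all. Listed exons were a median of 3317 bp long for EPSC-only genes, 3059 bp for E14-only genes and 4519 bp for genes in both. Genes with peaks in both cell types had the longest listed exons and the highest median input, and E14-only genes had a lower median input than EPSC-only genes. Of all EPSC peaks, 71.9% met a peak that the authors' deposited tables give for wild type, and 67.4% met one for Mettl3 knockout. For E14 peaks these shares were 61.8% and 58.7%. How far the EPSC and E14 peaks depend on Mettl3 was not tested. Names come from the same tables, so genes outside them are not counted. A gene with more or longer listed exons is also more easily met by a peak. The shares with a wild-type peak and the exon lengths above are therefore not independent of the naming.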

How the data were processed

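Members and gene lists were chosen with earlier results of these data known. Per the submitters' processing notes, Trim Galore, STAR 2.7.2 and MACS2 were used on mm9; the input's role in calling is not given in the sources used here. By the column order of their format, the deposited MACS2 lists hold a score, a fold (a ratio at the summit), -log10 p and -log10 q (at least 10 in all 5 lists) and the offset of the summit, a column of other kind. The deposited MeTPeak lists give a fold, p-values and log10 of p and FDR. The deposited exomePeak2 table gives RPM, a log2 fold change with p-value and -log10 p for Mettl3 knockout over wild type. The score and log10 columns were not used.

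Overlaps and names were computed in Python 3.11.15 with pandas; overlap counts equalled those of bedtools, and the steps were tested on simulated data. Of 11200 names in the authors' tables, 11037 matched a RefSeq symbol or synonym (GRCm38.p6, used for names alone), and 150 that join several genes were left out. A peak counts for each gene whose blocks it meets; exonic parts outside listed blocks stay unnamed. Peaks were ranked by -log10 q, ties by fold. Genes were named by rule: 10 per cell type with the highest -log10 q among genes of one list, 6 per cell type with the largest surplus of peaks at equal numbers, up to 2 members of one list and 2 of both per gene list, 5 single peaks per cell type, and Nanog, Pou5f1, Sox2, Klf4 and Esrrb. Some genes that the rule names are not reported here. Other genes named were chosen after their values were seen. Intervals are Wilson 95% intervals. No mm9 sequence was used, so no peak sequence is shown.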

Additional observations from a re-analysis of the deposited data

How the results depend on the processing

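With 1 list per cell type, leaving out a replicate was not possible. No paired analysis was possible because neither list holds a value per replicate. The share of EPSC peaks found in E14, 44.3% as reported, was 55.7% with equal numbers by -log10 q, 57.7% for the top 4000, 61.8% for the top 2000, 46.3% with equal numbers by fold, 36.4% when at least 50% of both peaks had to overlap, 36.6% with summits within 100 bp, 42.6% without 100-bp peaks, 50.6% against the 3 E14 lists joined and 42.8% without peaks met by MEF. The share of E14 peaks found in EPSC, 67.5% as reported, was 56.7%, 58.2%, 62.0%, 46.7%, 55.1% and 55.4% under the first 6 of these, 71.5% at a -log10 q of at least 20, 56.6% with the E14 lists joined and 55.3% without MEF. Chosen after seeing the data, peaks in listed exons of both lists gave 38.8% for EPSC and 69.8% for E14, and leaving out peaks with the same ends gave 38.5% and 62.1%. Peaks with the same ends are shared by definition, so leaving them out could only lower the shares.

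EPSC-only genes, 1219 as reported, numbered 631 at equal numbers by -log10 q, 419 for the top 4000 and 260 for the top 2000. E14-only genes, 291 as reported, numbered 550 at equal numbers by -log10 q, 624 by fold, 154 for the top 2000, 148 at a -log10 q of at least 20 and 661 with the E14 lists joined. Genes in both, 1802 as reported, numbered 797 for the top 4000, 383 for the top 2000, 825 at a -log10 q of at least 20 and 657 without MEF. EPSC-only genes outnumbered E14-only genes under every alternative that recounts genes, by 1.15 to 5.58 times, and the 4 ways of naming moved no count by more than 1.5 times. Of the 23 lists with any peak, 9 to 21 had more EPSC-only members, and at the top 4000 9 had more of each. Counts of list members moved by over 1.5 times in 273 of 828 cases. Depth is unknown, so a peak missing from a list may be one that depth did not allow.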

Other observations

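Beyond the lists above, 114 genes had a peak in EPSC at equal numbers and none in the 3 E14 lists or in MEF. After Eef1a1, the first by -log10 q were Rabggtb, a subunit of the enzyme that prenylates Rab proteins, with 2 peaks, and the ribosomal protein gene Rpl23 with 1. Clgn, a chaperone of the endoplasmic reticulum, had 4 peaks in EPSC, Cadm1, an adhesion molecule, had 2, and Cdyl2, a chromodomain gene, had 3. All but Eef1a1 were chosen after their values were seen.

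Col18a1, a basement membrane collagen, had 18 peaks in EPSC, 5 in E14 and none in MEF, and Hspg2, the perlecan gene, had 43 in EPSC, 29 in E14 and 50 in MEF. Igf2r, an imprinted receptor, had 28 in EPSC and 14 in E14, and Cdh1 had 13 in EPSC and 6 in E14. These 4 were chosen after their values were seen.

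The strongest single peaks of one list differed in kind. The 5 EPSC-only peaks of highest -log10 q lay in exons of Eef1a1, Nedd4, Sptbn1, Srebf2 and Atp2a2, and those in Nedd4 and Sptbn1 were met by peaks of both smaller E14 lists. The 5 E14-only peaks of highest -log10 q lay outside every listed gene, and 4 of them were met in both smaller E14 lists. The first, of 183 bp at chr14:46177823-46178005, had a -log10 q of 4513 at 4.99-fold.

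By chromosome, the EPSC-only share of EPSC peaks ran from 45.3% on chromosome 1 to 61.4% on chromosome 9 among the autosomes and was 53.5% on the X. On the Y chromosome EPSC had 4 peaks and E14 had 17, of which 14 were E14-only, beside 10 at 25K and 2 at 5K nuclei and 2 in MEF.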
